A study of Mus musculus with 6 samples.

Results

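The group described here is 10 genes: 9 receptors of the SLAM family and Sh2d1b1, which encodes the adaptor EAT-2. The receptors are Slamf1 (CD150), Cd48, Cd244a, Ly9, Cd84, Slamf6, Slamf7, Slamf8 and Slamf9. The members were chosen by name and found through the platform's annotation, as rows naming exactly 1 gene. All 10 had 1 such row, out of 19938 genes measured.

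Expression was measured in LSK CD150- cells of mouse bone marrow, which lack markers of mature blood lineages, carry Sca-1 and Kit, and were sorted for absence of CD150. The control group was 3 mice with the genotype Cebpafl/fl, called wild-type in the labels, whose Cebpa alleles carry loxP sites but are intact. The deleted group was 3 mice with the genotype Cebpafl/fl;Mx1Cre. In these the Cre recombinase is driven by the interferon-responsive Mx1 promoter, which is active in many cell types. Both groups received pIpC, a double-stranded RNA that induces interferon and so Cre, and were taken at day 18. The controls lacked Cre, so carriage of Cre and loss of Cebpa cannot be told apart. The sources used here give neither the ages of the mice nor the share of cells with the deletion. The product of Cebpa, C/EBPα, is a transcription factor that drives granulocyte and monocyte development. With 1 array for each mouse there were 3 samples of each genotype (n = 3), and all levels are log2 intensities as deposited.

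SLAM receptors are immunoglobulin-type surface proteins of blood cells, and most of them bind a copy of themselves on a neighbouring cell. CD48 and CD244 instead bind each other. CD48 has no cytoplasmic tail, whereas most of the other receptors signal through tyrosine motifs that recruit the small SH2-domain adaptors SAP (Sh2d1a) and EAT-2. In mouse bone marrow the family is used as a surface code: CD150 marks long-term stem cells, and CD48 appears on progenitors as they become restricted. The CD150- fraction of LSK cells therefore holds CD48-negative multipotent progenitors together with CD48-positive restricted progenitors.

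The promoter windows of the 2 members that rose, of the partner receptor Cd244a and of Sh2d1b2 are shown because they are the genes on which the results below turn. Sh2d1b2 is a tandem copy of Sh2d1b1 that encodes the related adaptor ERT. The sequences are from RefSeq (build GRCm38.p6), each from 250 bases before to 50 bases after an annotated start site, all on the plus strand. Capitals mark matches to the motif letters searched. They lie at chr1:170277068-170277367 for Sh2d1b1, chr1:170232621-170232920 for Sh2d1b2, chr1:171681742-171682041 for Cd48 and chr1:171558943-171559242 for Cd244a.
Sh2d1b1: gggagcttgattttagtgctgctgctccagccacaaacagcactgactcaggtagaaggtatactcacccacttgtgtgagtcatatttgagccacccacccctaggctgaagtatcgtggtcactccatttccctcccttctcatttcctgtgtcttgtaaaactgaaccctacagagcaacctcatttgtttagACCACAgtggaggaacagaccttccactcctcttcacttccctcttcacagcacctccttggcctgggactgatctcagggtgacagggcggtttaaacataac
Sh2d1b2: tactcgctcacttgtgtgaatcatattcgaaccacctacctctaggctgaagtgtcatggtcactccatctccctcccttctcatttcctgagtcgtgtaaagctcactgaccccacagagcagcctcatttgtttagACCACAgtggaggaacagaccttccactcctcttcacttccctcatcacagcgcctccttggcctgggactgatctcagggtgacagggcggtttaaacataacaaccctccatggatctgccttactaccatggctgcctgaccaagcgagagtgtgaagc
Cd48: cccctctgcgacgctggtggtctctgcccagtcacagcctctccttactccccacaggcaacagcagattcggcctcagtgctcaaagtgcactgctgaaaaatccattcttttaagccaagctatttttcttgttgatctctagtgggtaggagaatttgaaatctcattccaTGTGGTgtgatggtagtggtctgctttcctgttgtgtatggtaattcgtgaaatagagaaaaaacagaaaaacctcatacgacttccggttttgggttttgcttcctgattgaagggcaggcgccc
Cd244a: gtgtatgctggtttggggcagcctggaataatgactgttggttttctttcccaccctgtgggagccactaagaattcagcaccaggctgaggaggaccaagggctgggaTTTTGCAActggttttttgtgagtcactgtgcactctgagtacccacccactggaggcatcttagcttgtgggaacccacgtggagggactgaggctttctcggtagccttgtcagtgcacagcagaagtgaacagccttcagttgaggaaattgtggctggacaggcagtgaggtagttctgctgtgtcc

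The windows of Sh2d1b1 and Sh2d1b2 were nearly the same sequence. In a local alignment 222 of 243 aligned positions (91.4%) were identical, with the Sh2d1b2 window set further along the shared sequence. Both copies carried the letters ACCACA, at position -54 from the start site in Sh2d1b1 and at -112 in Sh2d1b2. Matches to 4 motifs were searched on both strands, and no printed match overlapped another. The C/EBP letters TTGCNNAA occurred in 1 of 9 member genes with a window (Cd244a, at -141), against 10.8% of all 32851 windows of that length. The RUNX letters TGTGGT occurred in 3 of 9 members (Sh2d1b1, Cd48 and Cd84), against 16.8% of all windows. The PU.1 letters GAGGAAGT occurred in 1 member (Slamf9), against 3.20%, and the GATA letters AGATAA in 0 members, against 11.2%. A match describes the letters of a window only.

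Cebpa, the targeted gene, read 7.84, 7.85 and 7.73 in control mice a, b and c and 6.37, 5.82 and 6.09 in deleted mice a, b and c. Its log2 difference was -1.71 ± 0.14 (SE, limma adjusted p = 0.000883). It is not known here whether its probes target the excised stretch, which limits what this value says of the deletion. The deposited values of all rows had medians of 6.16 to 6.23 on the 6 arrays, and Pearson's r across genes was 0.987 to 0.990 within genotypes and 0.979 to 0.986 between them. The labels call the mice female. However, 2 genes of the Y chromosome, Kdm5d and Eif2s3y, read 8.04 to 8.49 on every array, and another, Uty, 6.60 to 7.23. Xist read 4.46 to 5.13 on every array. These readings go against that label in both groups alike. Of the sort markers, Kit read 9.23 to 10.31 and Ly6a (Sca-1) was not analysed here. The progenitor marker Cd34 read 11.19 to 11.62. Of 8 measured markers of mature lineages, 6 had a mean below 6.20, the median of all values. None passed limma at an adjusted p under 0.05, which 1.43% of all genes did. At an unadjusted p under 0.05 there were 2, Itgam at 0.41 and Tfrc at 0.36, against 15.9% of all genes. The list median was -0.07. With 8 genes these counts do not measure the purity of the sort.

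After deletion, 2 of the 10 members rose and none fell: Cd48 and Sh2d1b1. The test was limma's moderated test across all genes, two-sided, with an adjusted p under 0.05 as the threshold. It called 1.43% of all genes, 0.702% of them higher and 0.732% lower. For 6 members the genotypes were fully separated, with no overlap of their 3 values, 4 higher and 2 lower after deletion, against 21.2% of all genes. The median log2 difference of the members was 0.08, against 0.03 over all genes. The median size of the difference, regardless of sign, was 0.29 against 0.12. Counted at an unadjusted p under 0.05, the members were 5, against 15.9% of all genes. The members were chosen with earlier results of these data known, so these comparisons are no test of the group.

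**Figure D1:**
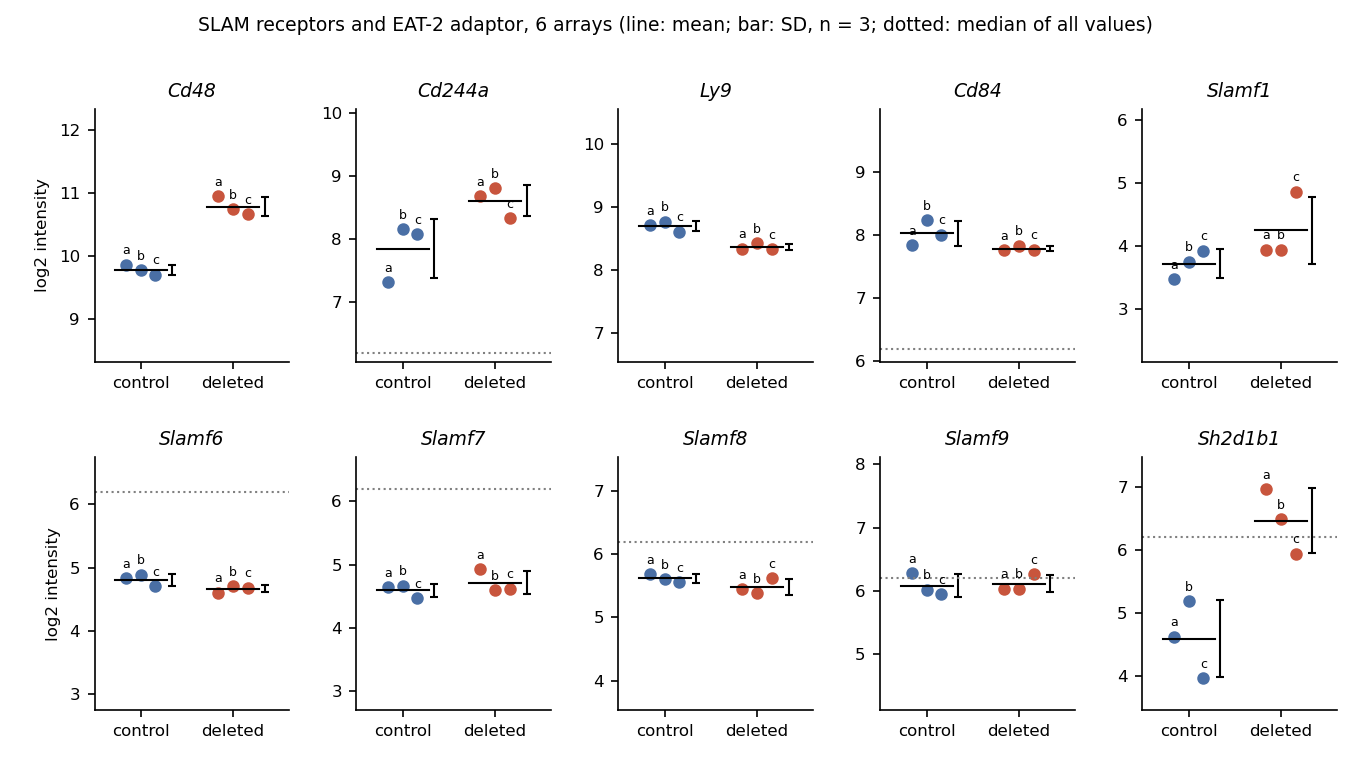
Log2 intensity (vertical axes, each spanning 4 log2 units) of the 10 members in control and deleted mice, with points lettered by mouse, lines at the means and bars of 1 SD (n = 3). The Cd48 and Sh2d1b1 points of deleted mice lie clear above those of controls, and those of Slamf6, Slamf7, Slamf8 and Slamf9 overlap. The dotted line is 6.20, the median of all values, where it falls within the panel.

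Cd48, the receptor that separates restricted from multipotent progenitors within this sort, had the smallest p of the 10 members. Its log2 intensity was 9.87, 9.78 and 9.71 in control mice a, b and c and 10.96, 10.74 and 10.67 in deleted mice a, b and c. Every deleted mouse read above every control, with a gap of 0.80 between the nearest values. Means were 9.79 ± 0.08 and 10.79 ± 0.15 (SD, n = 3 each), a 2.01-fold rise (95% interval 1.68 to 2.39). On the log2 scale this was 1.00 ± 0.11 (SE, limma adjusted p = 0.00520). Every array read this row far above the median of all values. The 6 values taken alone gave p = 0.1 in an exact permutation test (two-sided), which is the lowest p that a design of 3 against 3 can reach. Each array read the sorted cells of a mouse in bulk, so more cells that express a gene and more RNA per cell cannot be told apart, here and below. The call held without any single array (adjusted p = 0.0144 to 0.0346) and under every alternative except the test of every deposited row (0.0777).

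Cd244a, the receptor that binds CD48, was also higher in every deleted mouse but did not pass the test. It read 7.31, 8.16 and 8.07 in control mice a, b and c and 8.68, 8.80 and 8.33 in deleted mice a, b and c. Control a stood 0.76 below the next control, and the nearest values of the genotypes were 0.18 apart. Means were 7.85 ± 0.46 and 8.61 ± 0.24 (SD, n = 3 each), a log2 difference of 0.76 ± 0.22 (SE, 95% interval 0.27 to 1.24, limma adjusted p = 0.129). Without control a the difference was 0.49, and over all alternatives the adjusted p lay between 0.0865 and 0.297. The exact permutation p was 0.1.

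Sh2d1b1 had the largest difference of the group. EAT-2 links SLAM receptor tails to downstream signalling and is best known from natural killer cells and other innate cells. The row read 4.62, 5.18 and 3.96 in control mice a, b and c and 6.96, 6.49 and 5.94 in deleted mice a, b and c. The lowest deleted mouse lay 0.76 above the highest control, although mice of 1 genotype spread over 1 log2 unit or more. Means were 4.59 ± 0.61 and 6.46 ± 0.51 (SD, n = 3 each), a ratio of deposited values of 3.67 (95% interval 2.26 to 5.96) and a log2 difference of 1.87 ± 0.31 (SE, limma adjusted p = 0.0242). All 3 controls, and deleted c, read under 6.20, the median of all values, and signal was not separated from background in controls. The call was lost without control a (adjusted p = 0.0679), deleted a (0.0747) or deleted b (0.0934), and when every deposited row was tested (0.154). The log2 difference stayed between 1.56 and 2.17 over the alternatives, and the exact permutation p was 0.1.

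The other adaptors of the SAP family did not pass. Sh2d1b2, the tandem copy whose promoter is shown above, read 3.89 ± 0.14 in controls and 4.12 ± 0.14 in deleted mice (SD, n = 3 each), a log2 difference of 0.23 ± 0.12 (SE, adjusted p = 0.391). Sh2d1a, which encodes SAP, read 5.01 ± 0.22 and 5.35 ± 0.30 (SD, n = 3 each), a log2 difference of 0.35 ± 0.17 (SE, adjusted p = 0.354). Both read low in both genotypes. Whether the Sh2d1b1 row also binds transcripts of its copy was not tested.

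**Figure D2:**
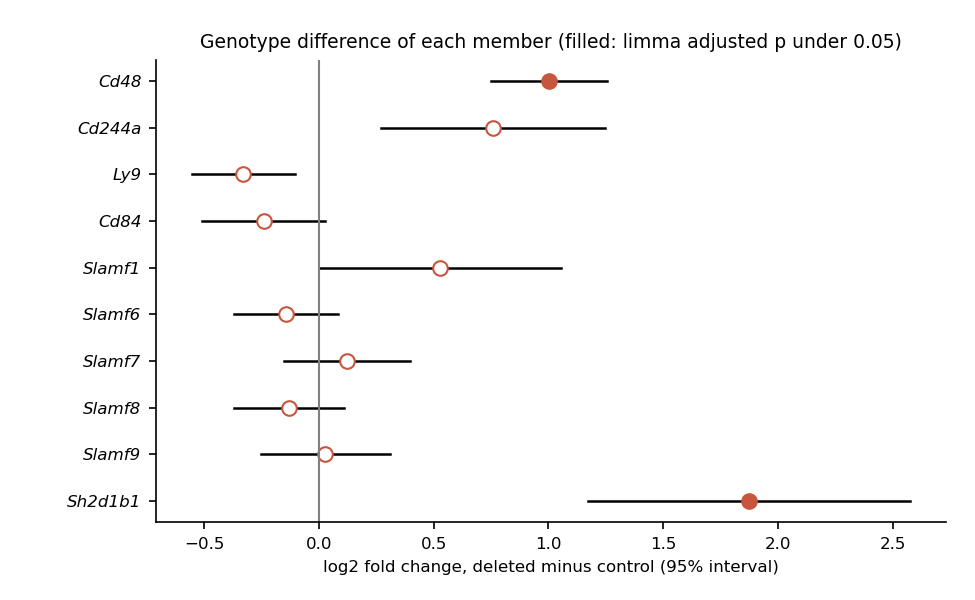
Log2 fold change of each member (horizontal axis, deleted minus control) with its 95% interval; filled points passed at a limma adjusted p under 0.05. The intervals of Cd48 and Sh2d1b1 lie furthest above 0, and that of Ly9 lies below 0 although it did not pass.

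Ly9 and Cd84, receptors that bind themselves across cell contacts, were lower in every deleted mouse by small amounts that did not pass. Ly9 (CD229), used to subdivide stem and progenitor cells, read 8.72, 8.77 and 8.61 in control mice a, b and c and 8.34, 8.43 and 8.34 in deleted mice a, b and c. The genotypes were 0.18 apart at their nearest values, and the log2 difference was -0.33 ± 0.10 (SE, 95% interval -0.55 to -0.11, limma adjusted p = 0.147). Over the alternatives its adjusted p lay between 0.0948 and 0.373. Cd84, also known from platelets and mast cells, read 7.84, 8.24 and 8.01 in control mice and 7.76, 7.84 and 7.77 in deleted mice. Its genotypes were separated by only 0.01, and the log2 difference was -0.24 ± 0.12 (SE, adjusted p = 0.375), or -0.14 without control b (0.732). Both intervals exclude a 2-fold change in either direction, and Ly9 and Cd48 lay on opposite sides of 0 in all 17 alternatives.

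Slamf1 encodes CD150, whose absence defined the sort, so its level is no finding. It read 3.48, 3.75 and 3.93 in control mice a, b and c and 3.94, 3.94 and 4.86 in deleted mice a, b and c, all below 6.20. Deleted c stood 0.92 above the other deleted mice, which read 0.01 above the highest control. The log2 difference was 0.53 ± 0.24 (SE, adjusted p = 0.314), and 0.22 without deleted c. At readings this low, signal was not separated from background.

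The 4 remaining receptors overlapped between genotypes. Slamf6 (Ly108), a self-binding receptor of lymphocytes, read 4.70 to 4.89 in controls and 4.60 to 4.71 in deleted mice. Slamf7 (CRACC), known from natural killer and plasma cells, read 4.47 to 4.66 and 4.59 to 4.93. Slamf8, known from macrophages, read 5.56 to 5.69 and 5.38 to 5.63. These 3 receptors lay below the median of all values on every array. Slamf9, which like Slamf8 has a short tail without the tyrosine motif, read 5.94 to 6.28 in controls and 6.03 to 6.26 in deleted mice, around that median. Their log2 differences were -0.14 (95% interval -0.37 to 0.08) for Slamf6, 0.12 (-0.15 to 0.40) for Slamf7, -0.13 (-0.37 to 0.11) for Slamf8 and 0.03 (-0.25 to 0.31) for Slamf9, with limma adjusted p-values of 0.547 to 0.942. Single arrays moved the small differences of Slamf7 (0.02 without deleted a, 0.06 without control c) and Slamf8 (-0.08 without deleted b, -0.20 without deleted c). Each interval excludes a 2-fold difference in deposited values, although signal was not separated from background in these rows.

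The members lie on chromosome 1, in a segment that runs from Sh2d1b1 past a block of Cd244a, Ly9, Slamf7, Cd48, Slamf1, Cd84 and Slamf6 to Slamf9 and Slamf8. In that segment 60 of 127 annotated genes were measured. The 2 genes that passed were the members Cd48 and Sh2d1b1. None of the 50 other genes passed in limma, which called 1.43% of all genes. Of the 50, 8 had an unadjusted p under 0.05, against 15.9% of all genes. The genotypes did not overlap for 9 (18%), against 21.2% of all genes. The median log2 difference of the 50 was 0.06. Within the block, neighbours differed in sign: Cd244a had a log2 difference of 0.76, Ly9 of -0.33, Slamf7 of 0.12 and Cd48 of 1.00. Without control c, 3 genes of the segment passed, of which Fcer1g is described next.

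**Figure D3:**
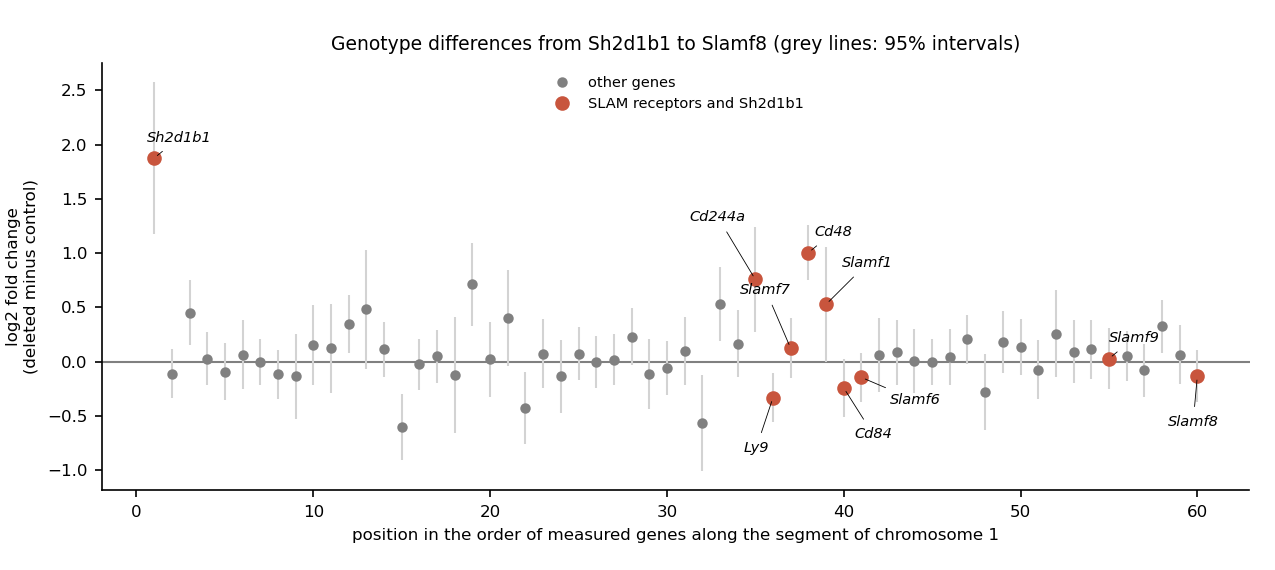
Log2 fold change (vertical axis, deleted minus control, with 95% intervals) of the 60 measured genes from Sh2d1b1 to Slamf8, by their order along chromosome 1. Members are red, and Sh2d1b1, Cd48 and Cd244a are the highest points of the segment.

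In a list of adaptors and signalling genes read beside the family, 1 of 30 measured genes rose and none fell. Over all genes limma called 0.702% higher and 0.732% lower. Of the 30, 6 had an unadjusted p under 0.05, against 15.9% of all genes. The genotypes did not overlap for 7, against 21.2% of all genes. The gene that rose was Tyrobp, which encodes DAP12, an adaptor of activating receptors on innate cells. DAP12 is not one of the SH2-domain adaptors of SLAM receptors described above. Tyrobp read 10.55, 10.51 and 10.62 in control mice a, b and c and 11.61, 11.51 and 11.15 in deleted mice a, b and c, without overlap. Its log2 difference was 0.86 ± 0.13 (SE, adjusted p = 0.0165), and the call was lost when control a, control b, deleted a or deleted b was left out (0.0558 to 0.0791) and when every deposited row was tested (0.122). Fcer1g, the related Fc receptor gamma chain, differed by 0.71 ± 0.17 (SE, adjusted p = 0.0783), and passed without control c (0.0357). Nck1, a signalling adaptor, differed by 0.44 ± 0.12 (SE, adjusted p = 0.122). The median log2 difference of the list was 0.10, beside 0.03 over all genes. The kinase Fyn, which SAP recruits, differed by -0.07, and the phosphatases Ptpn6, Ptpn11 and Inpp5d by 0.21, 0.20 and -0.38, none past the threshold (adjusted p = 0.276 to 0.877). These 4 were picked for their known link to the receptors, after their values were seen.

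Surface markers of LSK cells and other progenitors, read beside the SLAM code, were mostly lower after deletion. Of 12 measured, 3 fell and none rose (limma, against 0.732% and 0.702% of all genes), with a list median of -0.42. Another 5 were lower and 4 higher without passing. The 4 higher ones were Il7r (0.49), Itga2b (0.44), Fcgr3 (0.35) and Cd9 (0.32). All 12 had an unadjusted p under 0.05 in limma, against 15.9% of all genes. Of the 12, 10 did not overlap between genotypes, against 21.2% of all genes. Procr (EPCR), a stem cell marker, fell by 0.97 ± 0.12 (SE, adjusted p = 0.00854), a call that held without any single array. Kit, a marker on which the sort itself selected, fell by 0.75 ± 0.13 (SE, limma adjusted p = 0.0270). Flt3, which marks lymphoid-primed progenitors, fell by 0.71 ± 0.14 (SE, limma adjusted p = 0.0469). Kit kept its call only without deleted a among the single-array omissions (others up to 0.101), and Flt3 only without deleted c (others up to 0.145). Flt3 also lost its call with quantile, median and cyclic loess scaling (0.0511 to 0.0582). All 3 lost their calls when every deposited row was tested (Procr 0.0799, Kit 0.139 and Flt3 0.176). Their part in the readings of Cd48 and Sh2d1b1 was not tested.

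Natural killer cells and mast cells can express several of these receptors, and their markers were read beside the members. Of 13 natural killer markers, none passed in limma, which called 1.43% of all genes, and 11 had means below 6.20. At an unadjusted p under 0.05 there were 2, against 15.9% of all genes. They were Il2rb at 0.40 ± 0.12 and Ncr1 at 0.33 ± 0.12 (SE). Counts this close to the shares of all genes say little about these markers. The median log2 difference of the list was 0.14, beside 0.03 over all genes. The log2 difference was above 0 for 12 of the 13. Their mean log2 level was 5.02 to 5.15 in controls and 5.15 to 5.37 in deleted mice, with every deleted mouse above every control by a narrow margin. The defining markers Ncr1 and Klrb1c averaged 4.32 and 4.08 in controls and 4.65 and 4.26 in deleted mice. Klrd1 differed most, by 0.44 ± 0.25 (SE), with deleted c at 6.07. Its other deleted mice, a and b, read 5.02 and 5.06, within the control range of 4.75 to 5.12. Nkg7 was bright in both genotypes (9.20 and 9.35). Of 11 mast cell and basophil markers, Cpa3, a granule carboxypeptidase, rose 11.1-fold (log2 3.47 ± 0.12 SE, adjusted p = 2.2e-06). The mean level of that list was 5.71 to 5.73 in controls and 5.97 to 6.13 in deleted mice. Without Cpa3 the other 10 averaged 5.48 to 5.52 and 5.44 to 5.58, with Fcer1a at 4.76 and 4.69. Of the 11, 8 had means below 6.20. Mcpt8 (6.98 in controls and 7.07 in deleted mice) and Gata2 (7.54 and 7.67) averaged above it. Ms4a2 differed by 0.53 ± 0.17 and Cma1 by -0.45 ± 0.11 (SE), and neither passed. Without deleted a the difference of Ms4a2 was 0.31. Klrb1c, Fcer1a, Klrd1, Nkg7, Mcpt8 and Gata2 are shown by a choice made after their values were seen. The part of these cells in the rise of Cd48 and Sh2d1b1 was not tested.

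In the lists of other cell types, 2 genes passed, Cd68 and Flt3. Over all genes limma called 1.43%, and 15.9% had an unadjusted p under 0.05. Lists this short hold few or no passing genes at such a share, so these counts say little of the cell types. None of 11 T cell markers passed in limma (0 at an unadjusted p under 0.05, list median 0.04), with Trat1 at 0.39 and Cd3e at -0.22. None of 10 B and plasma cell markers did either (2 at an unadjusted p under 0.05, median 0.09), with Vpreb1 at 0.46 and Sdc1 at -0.57. Of 10 macrophage and monocyte markers Cd68, a lysosomal protein, fell by 0.90 ± 0.10 (SE, limma adjusted p = 0.00520, median 0.03), a call lost when every deposited row was tested (0.0745), beside Ccr2 at 0.43 and C1qc at -0.29. Of 12 dendritic cell markers, Flt3 alone passed (median -0.01), beside H2-Aa at -0.84 and Ly6d at 0.30. Leaving out single arrays moved the differences of Trat1, Cd3e, Sdc1, Ccr2, C1qc and Ly6d by over 1.5 times, and none of these passed in any fit.

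**Figure D4:**
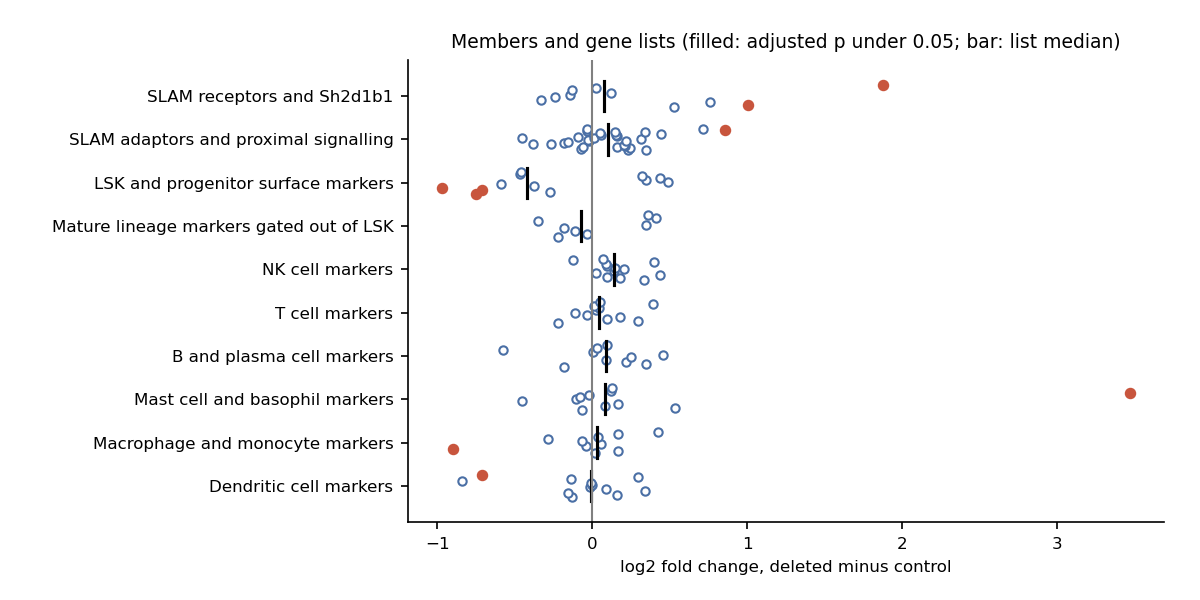
Log2 fold change (horizontal axis, deleted minus control) of the 10 members and of the genes of 9 lists, 1 point per gene, with list medians as bars; filled points passed at an adjusted p under 0.05. Cpa3, at 3.47, is the point furthest to the right, and the LSK and progenitor surface markers have the lowest median, -0.42.

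Readings over the 6 arrays were compared among the brighter 9969 genes. Names such as those of microRNAs, small nucleolar RNAs, olfactory receptors, predicted or clone genes and receptor segments were left out. The remaining genes that followed Cd48 most closely were Mtarc2, Nkapd1 and Scin (Pearson's r of 0.998, 0.997 and 0.997). For Sh2d1b1 they were Vrk1, Rap2c and Pirt (0.992, 0.992 and 0.989), and for Slamf1 Slc35b2, Zbtb11 and Limk1 (0.992, 0.986 and 0.984). Mtarc2 differed by 0.38 on the log2 scale, beside 1.00 for Cd48, and did not pass (limma adjusted p = 0.0935), whereas Nkapd1 and Scin did. None of the genes named for Sh2d1b1 or Slamf1 passed (limma adjusted p = 0.160 to 0.817). Vrk1, Rap2c and Pirt differed by 0.20, 0.36 and 0.13, beside 1.87 for Sh2d1b1. Slc35b2, Zbtb11 and Limk1 differed by 0.19, 0.25 and 0.06, beside 0.53 for Slamf1. Scin averaged 4.89 in controls, where signal was not separated from background, and 9.12 in deleted mice, so it was among the brighter genes only through the deleted group. With 6 arrays in 2 genotypes such values describe these samples, and r takes in the genotype difference.

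**Figure D5:**
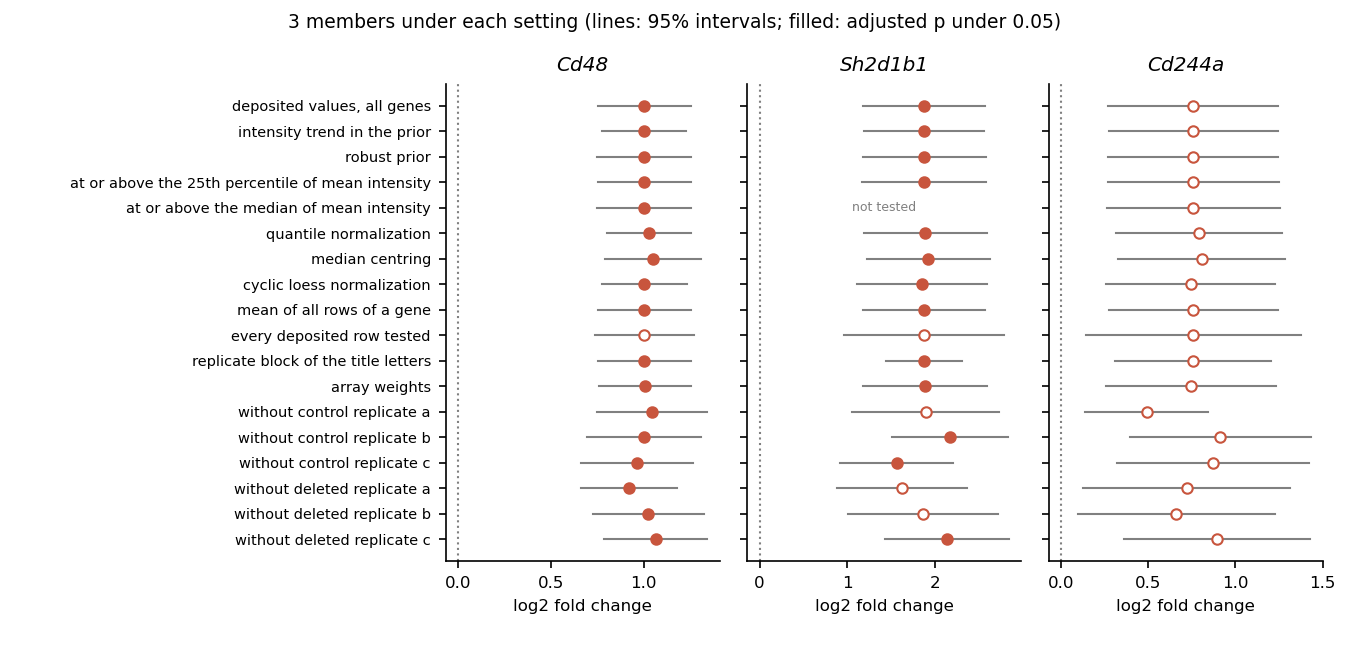
Log2 fold change (horizontal axes, deleted minus control, with 95% intervals) of Cd48, Sh2d1b1 and Cd244a with the deposited values and under 17 alternatives; filled points passed at an adjusted p under 0.05. The difference was above 0 in every fit, the Cd48 call was lost once, and Cd244a passed in none.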

How the data were processed

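LSK CD150- cells of 6 mice were profiled on 1-colour Affymetrix Mouse Gene 1.0 ST arrays. Amplification started from 20 ng of RNA, and 2.5 µg of cDNA was labelled with biotin, per the labels' protocols. The values the authors deposited are on a log2 scale, 1 per probe set and array. The submitters' processing notes name RMA and Affymetrix Expression Console 1.1.2, with settings and annotation build not given in the sources used here. No detection calls were used, so background was judged from the intensities only, and the number of arrays limits precision.

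Of 35556 rows, 21789 named 1 gene, 1621 several and 12146 none here. The row with the highest mean was kept for 999 genes with several, giving 19938 genes. Of these, 19856 matched a RefSeq table of GRCm38.p6, used for names and gene order. The genotypes were tested in R 4.3.3 with limma 3.58.1 (lmFit, eBayes, no filter), and members with exact permutation tests in SciPy 1.17.1. Errors are moderated standard errors, and 95% intervals come from the same limma fit. After the limma fits the same code was run on data simulated from the fitted variance prior. That run is therefore no independent check of the model.

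The members, lists, tests and the rule for named genes were chosen with earlier results of these data known. The rule named all members, Cebpa, sort markers, list genes past the threshold or with the smallest p, passing genes of the segment and the 3 most alike genes. Promoter windows were aligned with Biopython 1.88 and figures drawn with matplotlib 3.10.9.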

Additional observations from a re-analysis of the deposited data

How the results depend on the processing

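The 17 alternatives were an intensity trend or robust prior, 2 filters on dim genes, 3 other normalizations, averaging the rows of a gene, testing every deposited row, the title letters as a replicate block, array weights and each array left out. Members past the threshold numbered 2 in the main setting, 1 among the brighter 9969 genes (which leaves out Sh2d1b1), 0 with every deposited row tested, and 1 to 2 with single arrays left out (1 when control a, deleted a or deleted b was omitted). All genes past the threshold numbered 286 (140 higher and 146 lower) and became 438 in that brighter set and 13 over every row, where 35556 rows were tested. With single arrays left out the count was 53 to 250: leaving out control a gave 126, control b 53, control c 250, deleted a 145, deleted b 84 and deleted c 143. Quantile normalization gave 207 higher and 129 lower, and median centring 231 and 120. Cebpa lost its call over every row, with the same log2 difference of -1.71 (adjusted p = 0.0513). Slamf9, near 0, changed sign without control b (-0.0038), control c (-0.041) or deleted c (-0.050), and reached 0.13 without control a. Of the other fits of single members, 153 kept their direction and side of the threshold and 5 lost the call, 4 of Sh2d1b1 and 1 of Cd48. The causes were not tested. As a replicate block the letters gave 274 genes and 2 members. Deviations of arrays with 1 letter correlated at -0.0114, -0.0386 and 0.0609, and 2 of 6 arrays correlated best with their own letter, so the letters were not treated as pairs. Dim rows (Sh2d1b1 in controls, Slamf1, Slamf6, Slamf7 and Slamf8) limit what intensities can show.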
